A study of Homo sapiens with 16 samples.

Results

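Small nucleolar RNA host genes carry small RNAs in their introns, and 34 of the 78894 features in the table were taken as this class by name. They were the genes named SNHG followed by a number, together with GAS5, ZFAS1, DANCR and EPB41L4A-AS1. Of these, 30 reached at least 1 count per 1000000 assigned reads (CPM) in at least 4 libraries and were among the 16218 features tested. RNA had been sequenced from T47D cells, an established luminal breast cancer line that expresses the estrogen receptor, in 16 libraries of 4 groups with 4 libraries each. The groups were FAH knockout cells given abemaciclib, control-guide cells given abemaciclib, FAH knockout cells given vehicle, and control-guide cells given vehicle. FAH is fumarylacetoacetate hydrolase, the last enzyme of tyrosine breakdown, and abemaciclib, which blocks the kinases CDK4 and CDK6 that start the cell cycle, was given at 500 nM for 3 days. The series asks how loss of FAH bears on the response to this drug. All cells were grown in the same high-glucose medium with serum, and whether the knockout line is a single clone is not stated in the labels.

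A host gene is spliced like any other gene, and its introns, once cut out, are trimmed to small nucleolar RNAs (snoRNAs). Box C/D snoRNAs guide methylation of ribosomal RNA, and box H/ACA snoRNAs guide its conversion to pseudouridine, while small Cajal body RNAs (scaRNAs) guide the same marks on spliceosomal RNA. The spliced remainder of many hosts begins with a C followed by a run of C and T, the terminal oligopyrimidine (TOP) start that they share with ribosomal protein mRNAs. TOP RNAs follow the growth signals passed on by mTORC1 and the RNA-binding protein LARP1. Several host transcripts hold only short reading frames and are broken down by nonsense-mediated decay when they are translated, and GAS5 was first described as a transcript that accumulates when growth stops.

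The libraries held 9915776 to 11963093 assigned reads, estimated from the value of 1 read, so that 1 read was worth 0.0836 to 0.101 CPM. FAH was lower in every knockout library (5.03 to 7.02 CPM) than in any control library (22.6 to 28.2 CPM). All 11 luminal markers, among them KRT8, ESR1 and GATA3, were above 1 CPM (71.9 to 6459 CPM), while 1 of 4 basal markers, 3 of 6 mesenchymal, 3 of 5 leukocyte and 0 of 3 endothelial markers reached 1 CPM in any library. The basal markers KRT5 and KRT14 stayed under 1 CPM and the endothelial marker CDH5 was at 0. The labels do not tie the libraries of a group to separate cultures, so p-values measure only the spread among these libraries, which could be technical. Differences are given as log2(CPM + 1), a scale that shrinks those of genes with low values, and a gene was called at a limma adjusted p under 0.05. In a bulk sample less RNA per cell and fewer cells with the RNA cannot be told apart. Of the 30 tested host genes, 23 had whole read numbers in 8 or fewer of the 16 libraries, so that part of their counts was fractional, and their values are uncertain where reads are shared with intronic RNAs, copies or neighbours.

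The start of the transcript is the sequence feature that links host genes to ribosomal protein genes, so the windows of 35 bases before and 25 bases from the RefSeq start (assembly GRCh38.p14) are shown for 8 hosts. Capitals mark the base at the start, extended over the run of C and T where the transcript begins with C and at least 4 further bases that are each C or T, and the TATAA motif where 1 lies in the 40 bases before the start. The first 5 windows hold such a run, and the last 3, of genes with large drug differences, do not. ZFAS1 lies at chr20:49278607-49278666, plus strand, SNHG5 at chr6:85678709-85678768, minus strand, SNHG32 at chr6:31834881-31834940, plus strand, SNHG19 at chr16:2155334-2155393, minus strand, and SNHG12 at chr1:28581849-28581908, minus strand. DANCR lies at chr4:52712359-52712418, plus strand, SNHG8 at chr4:118278727-118278786, plus strand, and EPB41L4A-AS1 at chr5:112160491-112160550, plus strand.
ZFAS1: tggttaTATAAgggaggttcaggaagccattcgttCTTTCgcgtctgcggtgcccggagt
SNHG5: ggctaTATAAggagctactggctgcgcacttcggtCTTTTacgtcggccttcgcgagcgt
SNHG32: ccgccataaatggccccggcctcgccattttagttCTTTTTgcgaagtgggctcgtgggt
SNHG19: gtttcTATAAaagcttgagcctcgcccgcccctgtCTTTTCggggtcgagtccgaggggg
SNHG12: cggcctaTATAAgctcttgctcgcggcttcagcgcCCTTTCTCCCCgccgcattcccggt
DANCR: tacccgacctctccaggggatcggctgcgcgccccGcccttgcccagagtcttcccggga
SNHG8: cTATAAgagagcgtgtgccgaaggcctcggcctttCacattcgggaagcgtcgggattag
EPB41L4A-AS1: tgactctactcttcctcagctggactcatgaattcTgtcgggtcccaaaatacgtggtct
Some hosts start with such a run in transcripts of GENCODE 29 (GRCh38). The first 30 bases of 1 such transcript each are given for GAS5 (chr1:173867960-173867989, minus strand), SNHG16 (chr17:76557769-76557798, plus strand), SNHG29 (chr17:16439037-16439066, plus strand) and SNHG25 (chr17:64145970-64145999, plus strand), with the run in capitals.
GAS5: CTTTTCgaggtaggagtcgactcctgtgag
SNHG16: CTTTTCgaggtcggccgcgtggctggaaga
SNHG29: CTTTTCattcccgttgttatggaggtaggc
SNHG25: CTTTCagcgcctgcaggttccgggaggtca
GAS5, SNHG16 and SNHG29 begin with the same CTTTTC, and SNHG25 with CTTTC. Such a start was annotated for 6 of 29 GAS5 transcripts, 2 of 8 of SNHG16, 6 of 30 of SNHG29 and 2 of 2 of SNHG25, and the RefSeq start of GAS5, which lies elsewhere, has no such run. Of the 3 hosts whose RefSeq windows lack a run, SNHG8 had it in 1 of 5 GENCODE transcripts. DANCR had it in 0 of 5 and EPB41L4A-AS1 in 0 of 4.

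Read over RefSeq promoters on the transcript's own strand, a start run was present in 6 of 25 tested host genes with a promoter entry (24%), in 48 of 83 ribosomal protein genes (57.8%), in 805 of 15620 tested genes with an entry (5.15%) and in 4.07% of all 35116 promoters. TATAA in the 40 bases before the start, on the same strand, was found in 6 of the 25 host genes (24%), against 2.78% of tested genes and 4.34% of all promoters. In SNHG5, SNHG12, SNHG19 and ZFAS1 both features occurred together. CACGTG, the motif known for MYC and related factors and the same on both strands, occurred within the 300 bases in 2 of 25 host genes (8%), SNHG7 and SNHG30, against 9.35% of tested genes. These matches describe the letters of a window and say nothing of factor binding.

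As a group the host genes took the smallest share of reads in FAH knockout cells under vehicle. Their summed share was 0.498% ± 0.00357 in knockout cells under abemaciclib, 0.489% ± 0.00864 in control cells under abemaciclib, 0.462% ± 0.00549 in knockout cells under vehicle and 0.520% ± 0.00481 in control cells under vehicle (SD, n = 4 each). The knockout libraries lay below the control libraries without overlap under vehicle, and the ranges overlapped under abemaciclib. With the drug, the share was higher than with vehicle in all knockout libraries and lower in all control libraries. Most of it came from GAS5, SNHG29, SNHG32, SNHG5, SNHG6 and ZFAS1, which held 69.4 to 72.0% of host gene reads. The 86 rows of cytosolic ribosomal protein genes took 15.04% ± 0.168 of reads in knockout cells under abemaciclib, 15.6% ± 0.459 in control cells under abemaciclib, 14.9% ± 0.125 in knockout cells under vehicle and 17.4% ± 0.220 in control cells under vehicle. CPM are shares of a fixed sum, and the part of the ribosomal protein share in the differences of single host genes was not tested.

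**Figure D1:**
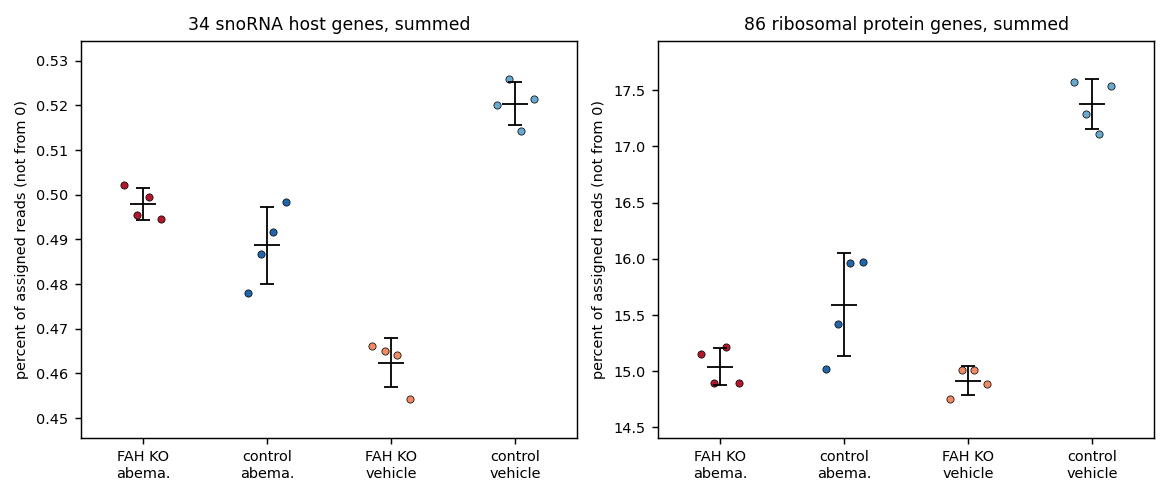
Summed share of assigned reads (percent, vertical axes not from 0) of the 34 host genes, left, and of 86 ribosomal protein genes, right, in each library (points), with mean and SD (bars) for the 4 groups. Host genes are lowest in FAH knockout cells under vehicle (0.462%) and highest in control cells under vehicle (0.520%).

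The drug difference depended on genotype for 9 host genes, and in each of them it was more positive in knockout cells. The interaction, which is the abemaciclib difference in knockout cells minus that in control cells, was called higher for 9 of 30 host genes, where 4.68% of all tested genes were called in this direction. It was called lower for 0 of 30 by limma, by voom on estimated reads and with median-of-ratios rescaling, against 6.16% of all tested genes, and 1 host gene (SNHG14) was lower at an unadjusted p under 0.05. Without control abemaciclib replicate 1 it was called lower for 1, SNHG8 (-0.14, adjusted p 0.0457). The median interaction was 0.10 over the 30 host genes and -0.03 over all tested genes, on the log2 scale. The 9 genes were DANCR, GAS5, ZFAS1, SNHG25, SNHG5, SNHG6, SNHG16, SNHG29 and SNHG32. With each of quantile normalization, no filter on low values and no trend in limma, 6 of the 9 were called.

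**Figure D2:**
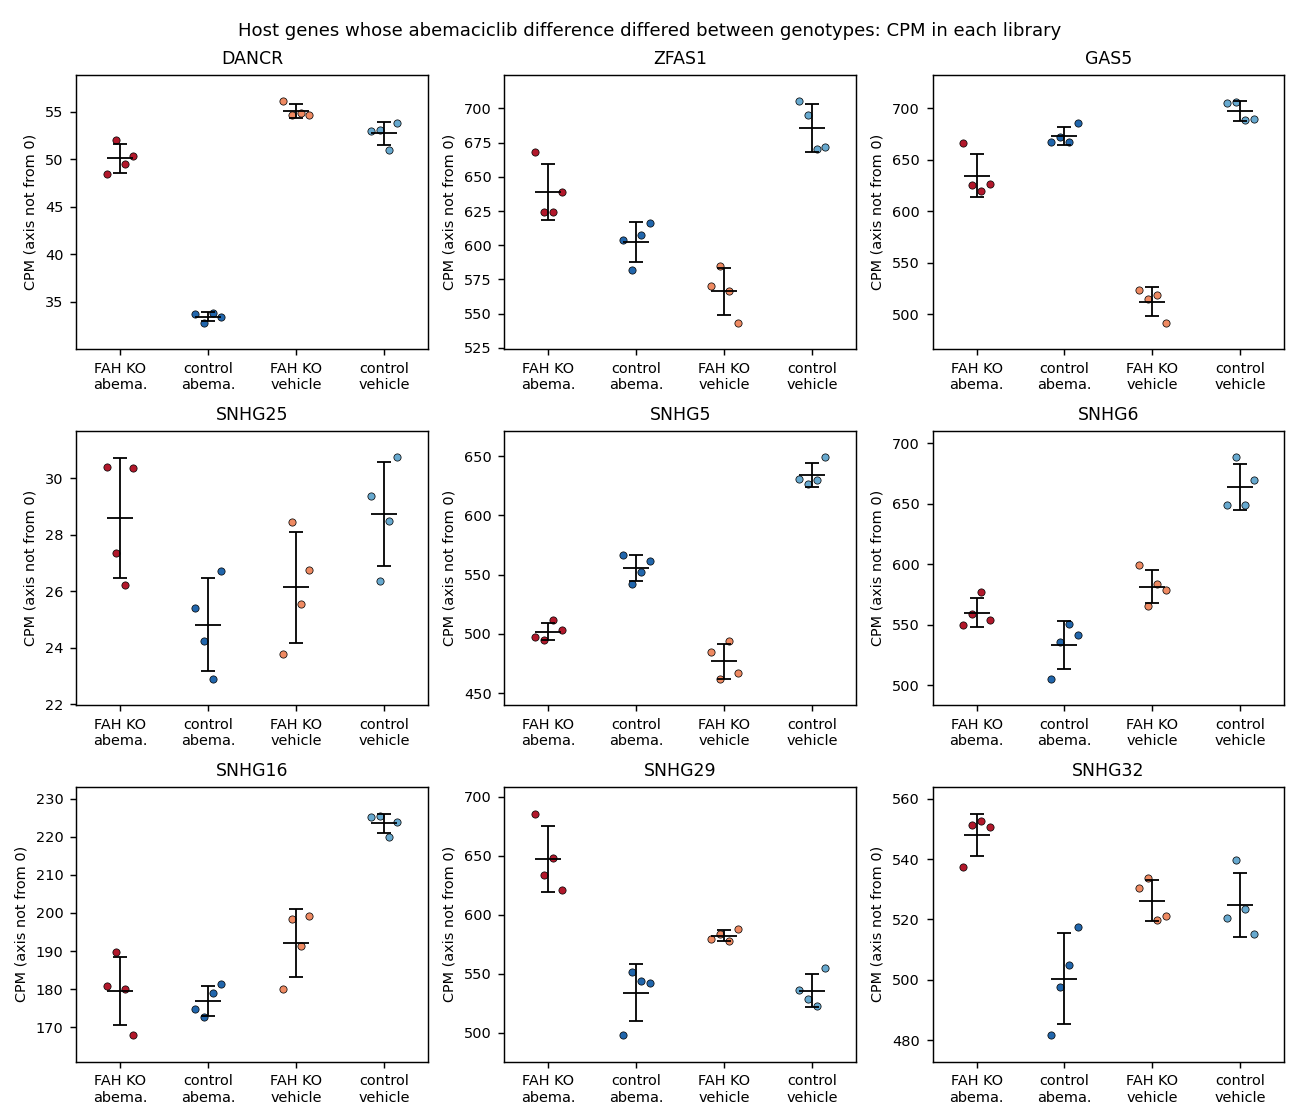
CPM of the 9 host genes with a called interaction in each library (points; vertical axes not from 0), with mean and SD of the 4 libraries of each group. In DANCR the control libraries under abemaciclib (32.8 to 33.8 CPM) stand apart, and in GAS5 and SNHG5 the knockout libraries under vehicle are lowest.

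GAS5, host of a run of box C/D snoRNAs, had 666, 626, 620.0 and 627 CPM in knockout libraries under abemaciclib, against 668, 672, 667 and 686 CPM in control libraries under abemaciclib. Under vehicle it had 523, 515, 519 and 492 CPM in knockout libraries, against 705, 706, 689 and 689 CPM in control libraries. The knockout libraries were below all control libraries under both treatments, by a narrow gap under abemaciclib and by a wide one under vehicle. Under vehicle the difference between genotypes was -0.44 (SE 0.0285, limma adjusted p = 1.8e-14). With the drug it was -0.09 (limma adjusted p = 0.0216). That call was lost with quantile normalization (-0.07, adjusted p 0.0631) and with no trend in limma (adjusted p 0.107). It was also lost without any 1 of knockout abemaciclib replicates 2, 3 and 4 or control abemaciclib replicate 4 (log2 difference -0.08 to -0.07, adjusted p 0.0598 to 0.0761). Abemaciclib went with more GAS5 in knockout cells (log2 difference 0.31, SE 0.0285, limma adjusted p = 7.5e-11), while in control cells the difference was -0.05 and did not pass the test (limma adjusted p = 0.141). The interaction was 0.36 (limma adjusted p = 1.1e-07).

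ZFAS1, host of the SNORD12 family, held 668, 624, 624 and 639 CPM in knockout libraries under abemaciclib, against 604, 582, 607 and 617 CPM in control libraries under abemaciclib. With vehicle, its knockout libraries held 570.0, 585, 566 and 543 CPM, against 705, 695, 670.3 and 672 CPM in control libraries. The order of the genotypes thus turned round, since knockout libraries were all above control libraries under abemaciclib and all below them under vehicle. The drug difference was 0.17 in knockout cells (limma adjusted p = 1.8e-05) and -0.19 in control cells (limma adjusted p = 3.4e-06), with an interaction of 0.36 (SE 0.0427, limma adjusted p = 2.7e-07). The genotype difference was -0.28 under vehicle (limma adjusted p = 5.2e-09). Under abemaciclib it was 0.08 (limma adjusted p = 0.0321), a call lost with median-of-ratios rescaling (log2 difference 0.04, adjusted p 0.443) and without knockout abemaciclib replicate 1 or 4 or control abemaciclib replicate 2 (0.06 to 0.08, adjusted p 0.0602 to 0.140). The call was also lost with no filter on low values (adjusted p 0.0955), with no trend in limma (adjusted p 0.137) and with the 2 compared groups alone (adjusted p 0.0592).

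SNHG5, host of SNORD50B, had 498, 495, 512 and 504 CPM in knockout libraries under abemaciclib, against 567, 542, 552 and 562 CPM in control libraries under abemaciclib. Vehicle libraries had 485, 462, 494 and 467 CPM in knockout cells, against 630.3, 627, 629 and 649 CPM in control cells. Knockout libraries were lower than control libraries under both treatments, with the wider gap under vehicle. That gap was -0.15 under abemaciclib (limma adjusted p = 0.000128) and -0.41 under vehicle (limma adjusted p = 1.1e-13), and the interaction was 0.26 (SE 0.0400, limma adjusted p = 1.7e-05). In knockout cells SNHG5 rose with the drug by 0.07 on the log2 scale (limma adjusted p = 0.0366), which was lost without knockout vehicle replicate 2 or 4 or knockout abemaciclib replicate 3 or 4 (0.06 to 0.07, adjusted p 0.0712 to 0.132). That call was also lost with no filter on low values (adjusted p 0.0636) and with no trend in limma (adjusted p 0.130). In control cells SNHG5 fell by 0.19 (limma adjusted p = 8.3e-07).

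DANCR, a host of SNORA26 known as an inhibitor of differentiation, had the largest interaction of the 30 host genes. Its libraries had 48.5, 52.1, 49.5 and 50.3 CPM in knockout cells under abemaciclib, against 33.8, 32.8, 33.8 and 33.4 CPM in control cells under abemaciclib. Under vehicle the values were 56.1, 54.7, 54.9 and 54.7 CPM in knockout cells, against 53.0, 53.1, 51.0 and 53.8 CPM in control cells. The 4 control libraries under abemaciclib were far below the other 12. DANCR fell with the drug by 0.13 in knockout cells (limma adjusted p = 0.0129) and by 0.64 in control cells (limma adjusted p = 1.7e-14), and the call in knockout cells was lost with median-of-ratios rescaling (log2 difference -0.05, adjusted p 0.448) and quantile normalization (-0.04, adjusted p 0.552). Knockout cells had more DANCR than control cells under abemaciclib (log2 difference 0.57, SE 0.0433, limma adjusted p = 1.7e-12). Under vehicle the knockout libraries were just above the control range, but the difference of 0.06 did not pass the test (95% interval -0.03 to 0.16), and the interaction was 0.51 (SE 0.0612, limma adjusted p = 3.9e-07).

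SNHG6, host of SNORD87, had 549, 559, 577 and 554 CPM in knockout libraries under abemaciclib, against 505, 535, 550.4 and 542 CPM in control libraries under abemaciclib. Under vehicle there were 599, 565, 584 and 578 CPM in knockout libraries, against 649, 688, 649 and 669 CPM in control libraries. The control libraries under vehicle were the highest of all 16. The drug difference of SNHG6 was -0.05 in knockout cells (limma adjusted p = 0.164) and -0.32 in control cells (limma adjusted p = 1.1e-10), with an interaction of 0.26 (limma adjusted p = 5.7e-05). The genotype difference was -0.19 under vehicle (limma adjusted p = 5.8e-06). It was 0.07 under abemaciclib (limma adjusted p = 0.0755), and without control abemaciclib replicate 3 it was called (0.09, adjusted p 0.0467).

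SNHG16, host of the SNORD1 family, had 181, 189.6, 180.0 and 168 CPM in knockout libraries under abemaciclib, against 175, 173, 179 and 181 CPM in control libraries under abemaciclib. In vehicle libraries it had 179.9, 198, 191 and 199 CPM in knockout cells, against 225, 225, 219.9 and 224 CPM in control cells. Again the control libraries under vehicle were above all others, and the genotypes overlapped under abemaciclib. The drug difference was -0.10 in knockout cells (limma adjusted p = 0.0352) and -0.34 in control cells (limma adjusted p = 2.0e-09). Between them the interaction was 0.24 (limma adjusted p = 0.00190; 0.16 and adjusted p 0.0509 with quantile normalization). The call in knockout cells was lost without knockout vehicle replicate 2, 3 or 4 or knockout abemaciclib replicate 3 or 4 (-0.10 to -0.07, adjusted p 0.0569 to 0.186) and with median-of-ratios rescaling (-0.01, adjusted p 0.902). Under vehicle knockout cells had less SNHG16 than control cells (log2 difference -0.22, SE 0.0369, limma adjusted p = 1.5e-05).

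SNHG29, host of SNORD49A, SNORD49B and SNORD65, had 686, 634, 648 and 621 CPM in knockout libraries under abemaciclib, against 498, 551, 543 and 542 CPM in control libraries under abemaciclib. Under vehicle, 579.7, 584, 578 and 588 CPM were found in knockout libraries, against 536, 528, 523 and 555 CPM in control libraries. Unlike GAS5 and SNHG5, it was higher in knockout libraries under both treatments, with no overlap. The genotype difference was 0.28 under abemaciclib (limma adjusted p = 3.1e-08) and 0.12 under vehicle (limma adjusted p = 0.00364; 0.06 and adjusted p 0.272 with median-of-ratios rescaling). SNHG29 rose with the drug by 0.15 in knockout cells (limma adjusted p = 0.000322). In control cells the drug difference was -0.01 (limma adjusted p = 0.900), but 0.14 with quantile normalization (adjusted p 0.000186). The interaction of 0.16 (limma adjusted p = 0.0225) was lost without control vehicle replicate 4 or knockout abemaciclib replicate 1 (0.13 to 0.14, adjusted p 0.0597 to 0.0656) and with quantile normalization (0.00, adjusted p 0.984), no filter on low values (adjusted p 0.114) and no trend (adjusted p 0.145).

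SNHG32, host of SNORD48 and SNORD52, had 538, 551, 553 and 551 CPM in knockout libraries under abemaciclib, against 482, 497, 505 and 518 CPM in control libraries under abemaciclib. In vehicle it had 530.3, 534, 519.8 and 521 CPM in knockout libraries, against 521, 539.7, 523 and 515 CPM in control libraries. The genotypes were apart under abemaciclib and overlapped under vehicle. Knockout cells were higher under abemaciclib by 0.13 (limma adjusted p = 0.000427; 0.09 and adjusted p 0.0518 with median-of-ratios rescaling). The drug difference in control cells was -0.07 (limma adjusted p = 0.0405), but 0.00 with median-of-ratios rescaling and 0.08 with quantile normalization, where it was called higher. It was also lost without control vehicle replicate 1, 2 or 3 or replicate 1 or 2 of control cells under abemaciclib (-0.07 to -0.05, adjusted p 0.0537 to 0.139). The interaction of 0.13 (limma adjusted p = 0.0333) is the smallest of the 9, and 8 of the 16 leave-one-out fits lost it (0.11 to 0.12, adjusted p 0.0538 to 0.0808): those without knockout vehicle replicate 3 or 4, control vehicle replicate 2, knockout abemaciclib replicate 2, 3 or 4, or control abemaciclib replicate 1 or 2. With quantile normalization it was 0.03 (adjusted p 0.695), and it was also lost with no filter on low values (adjusted p 0.0616) and with no trend (adjusted p 0.151). The drug difference in knockout cells was 0.06 (limma adjusted p = 0.0992), and it was called with median-of-ratios rescaling (0.15, adjusted p 0.000480) and quantile normalization (0.11, adjusted p 0.00133).

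SNHG25, a short host of SNORD104, had 30.4, 27.4, 26.2 and 30.4 CPM in knockout libraries under abemaciclib, against 25.4, 24.3, 22.9 and 26.7 CPM in control libraries under abemaciclib. Vehicle gave 23.8, 28.4, 25.6 and 26.8 CPM in knockout libraries, against 29.4, 26.4, 28.5 and 30.7 CPM in control libraries. All pairs of groups overlapped, so its calls rest on differences of means close to the spread. The interaction was 0.33 (SE 0.0922, limma adjusted p = 0.0166), and it was lost with no filter on low values (adjusted p 0.0817) and with no trend (adjusted p 0.0540). The drug difference in control cells was -0.20 (limma adjusted p = 0.00919; -0.13 and adjusted p 0.0872 with median-of-ratios rescaling). Knockout cells were higher under abemaciclib by 0.20 (limma adjusted p = 0.0214), a call lost with median-of-ratios rescaling (0.15, adjusted p 0.0828) and without knockout abemaciclib replicate 1 or 4 or control abemaciclib replicate 2 or 3 (0.16 to 0.19, adjusted p 0.0511 to 0.0879). Its exons share 48.56% of their bases with annotated small RNAs on the same strand, and its reads were whole in 1 library, so part of its value is uncertain.

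**Figure D3:**
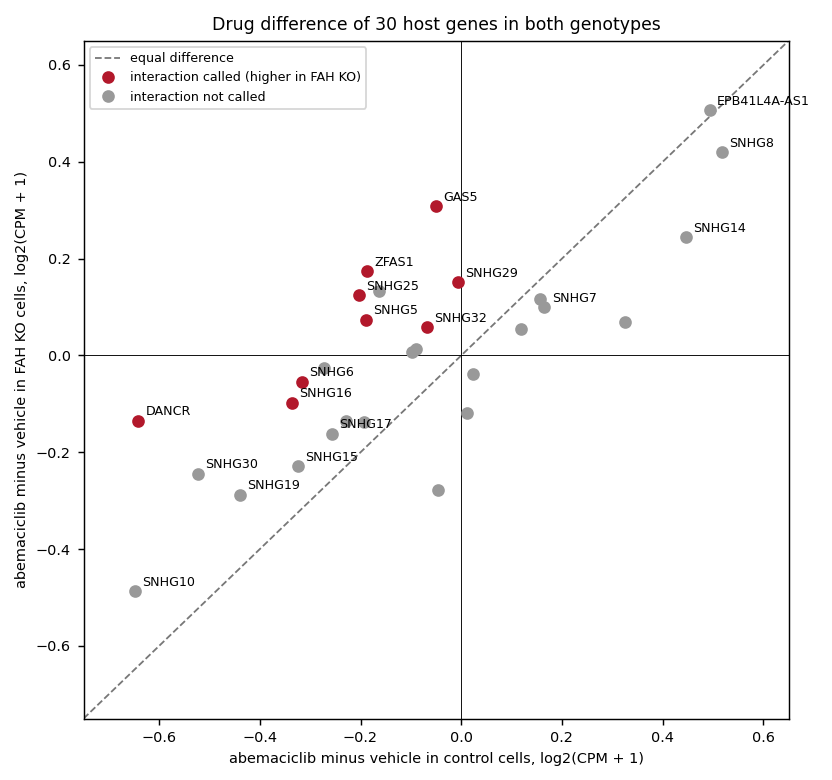
Abemaciclib minus vehicle difference (log2(CPM + 1)) of the 30 tested host genes in control cells, horizontal axis, and in FAH knockout cells, vertical axis. The dashed line marks equal differences, and the 9 genes with a called interaction (red) lie above it, with GAS5 at 0.31 in knockout cells and -0.05 in control cells.

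A start run of C and T was annotated in GENCODE 29 for at least 1 transcript of 7 of the 9 genes with a called interaction (25 of 123 transcripts, 20.3%) and of 7 of the 20 other tested host genes with an entry (13 of 166 transcripts, 7.83%), where 2.41% of all 206694 transcripts start this way. SNHG32 had the run in RefSeq only, and DANCR in neither annotation. By RefSeq the counts were 3 of 7 (42.9%) and 3 of 18 (16.7%). Transcripts of 1 gene share starts and the genes were sorted here by their own readout, so these shares are a description. The 9 genes include all 6 hosts of at least 500 CPM. They also have more annotated transcripts for each gene (123 over 9 genes, against 166 over 20). Whether expression level or depth of annotation bears on these shares was not tested. SNHG12 and SNHG19, whose windows hold a run of C and T, had interactions of 0.30 (limma adjusted p = 0.0776) and 0.15 (limma adjusted p = 0.241), which did not pass the test.

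EPB41L4A-AS1, SNHG8 and SNHG14 rose with abemaciclib in both genotypes, and SNHG10 and DANCR had the largest falls in control cells. Of 30 host genes, 8 were called higher (11% of all tested genes) and 7 lower (27.4%) in knockout cells. In control cells 6 were called higher (19.6% of all tested genes) and 14 lower (31.1%). Of these 14, 7 were genes with a called interaction, DANCR, ZFAS1, SNHG5, SNHG6, SNHG16, SNHG25 and SNHG32. The interaction is computed from the same control libraries, so this overlap is partly built in. Its share over all tested genes was not counted. The groups did not overlap for 9 higher and 6 lower in knockout cells (10.4% and 25.5% of tested genes), and for 4 higher and 13 lower in control cells (16.1% and 26.7%). Median log2 differences over the host genes were 0.01 in knockout cells and -0.13 in control cells, beside -0.07 and -0.05 over all tested genes. Over all tested genes 1780 were called higher and 4444 lower in knockout cells, which became 3173 and 2886 with median-of-ratios rescaling. In control cells 3181 were called higher and 5039 lower, and 4166 and 4017 with that rescaling. Host gene calls were then 12 higher and 3 lower in knockout cells and 6 higher and 10 lower in control cells, with medians of 0.10 and -0.06. The comparisons of the drug within each genotype share no libraries, but their spread comes from a common model, so they are not independent. In these, 4 host genes were called higher in both, 6 lower in both, and SNHG5 and ZFAS1 higher in knockout cells and lower in control cells. How many of all tested genes were called in both was not counted.

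The 4 genes called higher with the drug in both genotypes were EPB41L4A-AS1, SNHG7, SNHG8 and SNHG14. EPB41L4A-AS1, host of SNORA13, had 114, 111, 116 and 115 CPM in knockout libraries under abemaciclib, against 81.04, 80.4, 81.5 and 77.3 CPM in knockout libraries under vehicle. Control libraries had 109, 110.4, 113 and 108 CPM under abemaciclib, against 74.2, 84.4, 74.7 and 78.8 CPM under vehicle. Drug and vehicle libraries were fully apart in both genotypes, and the genotypes overlapped. The differences were 0.51 in knockout cells (limma adjusted p = 1.7e-12) and 0.49 in control cells (limma adjusted p = 1.9e-12), with an interaction of 0.01 and a 95% interval of -0.11 to 0.14.

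SNHG8, host of SNORA24, had 203, 207, 210.3 and 208 CPM in knockout libraries under abemaciclib, against 152, 156, 158 and 152 CPM in knockout libraries under vehicle. Control libraries had 225, 249, 247 and 272 CPM under abemaciclib, against 171, 171, 176 and 173 CPM under vehicle. It rose with the drug by 0.42 in knockout cells (limma adjusted p = 7.6e-11) and by 0.52 in control cells (limma adjusted p = 2.5e-13). SNHG8 also fell with the knockout, without overlap, by 0.26 under abemaciclib (limma adjusted p = 2.7e-06) and by 0.16 under vehicle (limma adjusted p = 0.00118). Its interaction of -0.10 was not called (limma adjusted p = 0.291), and the control abemaciclib replicate without which it passed the test was the lowest library of that group.

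SNHG14 is the long imprinted transcript that carries the SNORD115 and SNORD116 clusters and runs against UBE3A. It had 66.2, 66.5, 60.3 and 66.1 CPM in knockout libraries under abemaciclib, against 56.3, 53.2, 59.8 and 49.2 CPM in knockout libraries under vehicle. Control libraries held 79.4, 63.4, 59.8 and 57.3 CPM under abemaciclib, against 46.3, 46.8, 48.4 and 46.7 CPM under vehicle, with replicate 1 of the drug group well above the rest. The drug differences were 0.24 in knockout cells (limma adjusted p = 0.00346; 0.0506 with no filter on low values) and 0.45 in control cells (limma adjusted p = 8.0e-07). SNRPN, which overlaps it on the same strand, also rose with the drug, by 0.29 in knockout cells (limma adjusted p = 1.2e-07) and 0.26 in control cells (limma adjusted p = 3.5e-07). UBE3A, on the other strand, fell by 0.21 in knockout cells (limma adjusted p = 0.000168) and by 0.19 in control cells (limma adjusted p = 0.000397; 0.0757 with quantile normalization). SNHG14 reads were whole in 1 library. Under vehicle it was higher in knockout than in control libraries by 0.21 (limma adjusted p = 0.0130), a call lost without knockout vehicle replicate 3 (0.16, adjusted p 0.0715) and with median-of-ratios rescaling (0.14, adjusted p 0.0613).

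SNHG7, host of SNORA17A and SNORA17B, had 238, 251, 253 and 246 CPM in knockout libraries under abemaciclib, against 244, 233, 221 and 224 CPM in knockout libraries under vehicle. Control libraries had 260.5, 283, 273 and 278 CPM under abemaciclib, against 241, 244, 249 and 242 CPM under vehicle. Drug libraries were apart from vehicle libraries in control cells only. The rise was 0.10 in knockout cells (limma adjusted p = 0.0206) and 0.17 in control cells (limma adjusted p = 0.000134), and the interaction of -0.07 did not pass the test (limma adjusted p = 0.458). The rise in knockout cells was lost without knockout vehicle replicate 3 or 4 or knockout abemaciclib replicate 2 or 3 (0.08 to 0.09, adjusted p 0.0560 to 0.0951). Knockout cells had less SNHG7 under abemaciclib (log2 difference -0.15, SE 0.0343, limma adjusted p = 0.00106). Under vehicle the difference was -0.08 (limma adjusted p = 0.0562), and it passed the test with median-of-ratios rescaling (-0.15, adjusted p 0.00197), without knockout vehicle replicate 1 and without control abemaciclib replicate 1 (-0.11 to -0.08, adjusted p 0.0133 to 0.0363).

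The 6 genes called lower with the drug in both genotypes were DANCR and SNHG16, given before, and SNHG10, SNHG15, SNHG17 and SNHG19. SNHG10, host of SCARNA13, had 11.2, 9.47, 11.5 and 10.4 CPM in knockout libraries under abemaciclib, against 14.8, 16.1, 14.9 and 15.4 CPM in knockout libraries under vehicle. Control libraries had 7.43, 7.31, 8.84 and 9.58 CPM under abemaciclib, against 13.2, 13.9, 13.7 and 13.2 CPM under vehicle. Every drug library was below every vehicle library. SNHG10 fell by 0.49 in knockout cells (limma adjusted p = 1.2e-05) and by 0.65 in control cells (limma adjusted p = 4.2e-08), the largest fall among the 30 host genes in each genotype. Knockout cells held more than control cells under abemaciclib by 0.33 (limma adjusted p = 0.00230), though 1 knockout library lay within the control range.

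SNHG19, host of SNORD60, had 31.1, 30.8, 31.1 and 35.5 CPM in knockout libraries under abemaciclib, against 36.2, 37.01, 38.1 and 36.1 CPM in control libraries under abemaciclib. In vehicle libraries it had 39.9, 37.6, 37.6 and 42.6 CPM in knockout cells, against 51.8, 52.1, 46.2 and 51.3 CPM in control cells. It was lower in knockout than control libraries under both treatments, and lower with the drug in both genotypes, without overlap in any of these comparisons. The knockout difference was -0.19 under abemaciclib (limma adjusted p = 0.00697) and -0.35 under vehicle (limma adjusted p = 5.8e-06). The drug difference was -0.29 in knockout cells (limma adjusted p = 7.4e-05) and -0.44 in control cells (limma adjusted p = 3.4e-08).

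SNHG15, host of SNORA9, had 57.2, 57.4, 61.9 and 59.1 CPM in knockout libraries under abemaciclib, against 68.6, 73.02, 71.5 and 63.9 CPM in knockout libraries under vehicle. Control libraries had 59.9, 54.3, 54.2 and 56.8 CPM under abemaciclib, against 69.1, 70.7, 71.01 and 71.9 CPM under vehicle. The drug libraries were lower without overlap, by 0.23 in knockout cells (limma adjusted p = 0.000133) and 0.32 in control cells (limma adjusted p = 3.5e-07), and neither genotype difference was called. SNHG17, host of the SNORA71 family, had 57.6, 60.9, 55.8 and 57.6 CPM in knockout libraries under abemaciclib, against 66.9, 64.2, 65.02 and 63.7 CPM in knockout libraries under vehicle. Its control libraries had 51.7, 53.4, 50.1 and 49.1 CPM under abemaciclib, against 60.7, 61.5, 63.4 and 59.2 CPM under vehicle. Here too no drug library reached the vehicle range of its own genotype. SNHG17 fell by 0.16 in knockout cells (limma adjusted p = 0.00302; -0.07 and adjusted p 0.181 with median-of-ratios rescaling) and by 0.26 in control cells (limma adjusted p = 5.9e-06). It was higher in knockout than control cells under abemaciclib by 0.18 (limma adjusted p = 0.00151).

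**Figure D4:**
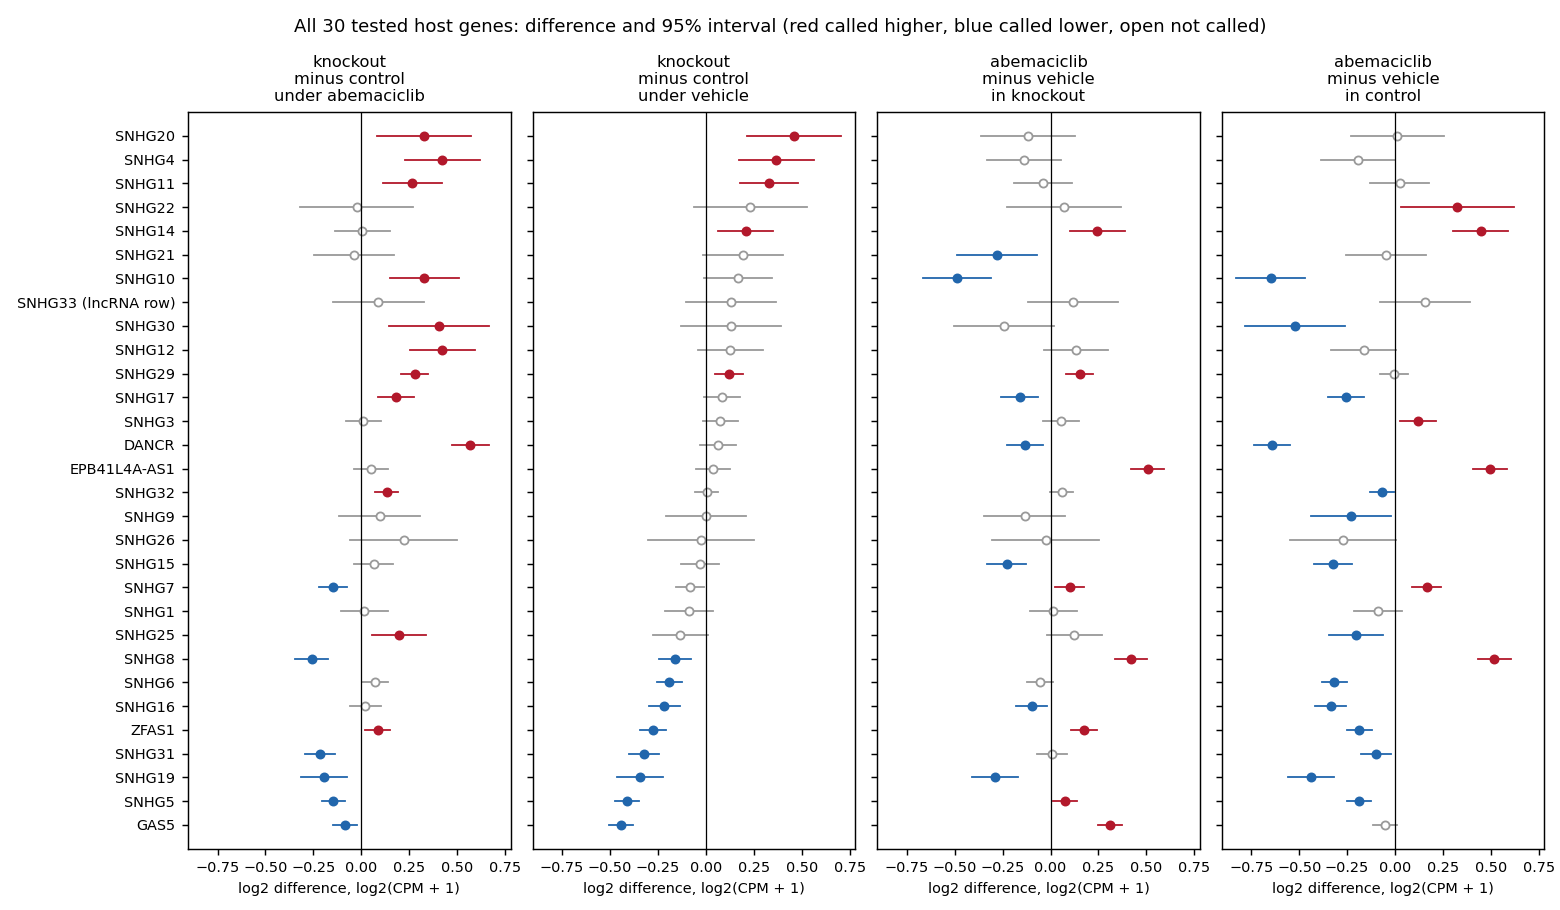
Log2 difference (points, log2(CPM + 1)) and 95% interval (lines) of the 30 tested host genes in the 4 comparisons of groups, ordered by the knockout difference under vehicle. SNHG20, SNHG4, SNHG11 and SNHG29 are called higher (red) in knockout cells under both treatments, and GAS5, SNHG5, SNHG19, SNHG31 and SNHG8 lower (blue).

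Loss of FAH went with lower GAS5, SNHG5, SNHG8, SNHG19 and SNHG31 and higher SNHG4, SNHG11, SNHG20 and SNHG29 under both treatments. Under abemaciclib 12 of 30 host genes were called higher in knockout cells (18.6% of all tested genes) and 6 lower (11.3%). Under vehicle 5 were called higher (24.6% of all tested genes) and 8 lower (13.1%). Groups did not overlap for 9 higher and 6 lower under abemaciclib (16.5% and 10.1% of tested genes), and for 8 higher and 8 lower under vehicle (22.2% and 12.7%). The median log2 difference over host genes was 0.08 under abemaciclib and 0.02 under vehicle, beside 0.04 and 0.06 over all tested genes. The comparisons under abemaciclib and under vehicle share no libraries. They set the same genotypes against each other and take their spread from a common model, so they are not independent. Of the host genes, 4 were higher in both, 5 lower in both, and ZFAS1 was higher under abemaciclib and lower under vehicle. The share of all tested genes called in both was not counted. Over all tested genes 3020 were called higher and 1837 lower under abemaciclib, which became 2126 and 2408 with median-of-ratios rescaling. Under vehicle 3987 were called higher and 2121 lower, and 2825 and 2983 with that rescaling. Host gene calls were then 9 higher and 6 lower under abemaciclib and 3 higher and 11 lower under vehicle, with medians of 0.03 and -0.04, so that the vehicle median changed sign.

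SNHG31 had 145, 147, 139 and 146 CPM in knockout libraries under abemaciclib, against 164, 164, 165 and 178 CPM in control libraries under abemaciclib. Under vehicle it had 137, 151, 143 and 144 CPM in knockout libraries, against 179.9, 179, 177 and 183 CPM in control libraries. No knockout library reached the control range under either treatment. The difference was -0.22 under abemaciclib (limma adjusted p = 1.4e-05) and -0.32 under vehicle (limma adjusted p = 7.6e-09). In control cells the drug difference of -0.10 (limma adjusted p = 0.0222) turned to 0.02 with quantile normalization, and it was lost without control vehicle replicate 4 or replicate 2 or 3 of control cells under abemaciclib (-0.09, adjusted p 0.0556 to 0.0632) and with median-of-ratios rescaling (-0.03, adjusted p 0.605). SNHG31 reads were whole in no library.

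SNHG11, host of SNORA60 and SNORA71E, had 25.9, 28.7, 27.9 and 25.2 CPM in knockout libraries under abemaciclib, against 21.2, 21.6, 25.7 and 20.6 CPM in control libraries under abemaciclib. Vehicle libraries had 26.7, 27.7, 29.6 and 26.6 CPM in knockout cells, against 19.9, 23.6, 20.3 and 23.8 CPM in control cells. Knockout libraries were apart from control libraries under vehicle, and 1 control library reached into the knockout range under abemaciclib. The rise was 0.27 under abemaciclib (limma adjusted p = 0.00369) and 0.33 under vehicle (limma adjusted p = 0.000325), and neither drug difference was called.

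SNHG12, host of SNORD99 and of box H/ACA snoRNAs, had 17.8, 22.7, 23.99 and 22.1 CPM in knockout libraries under abemaciclib, against 14.7, 15.9, 16.9 and 15.8 CPM in control libraries under abemaciclib. Its vehicle libraries had 19.5, 21.9, 18.6 and 18.4 CPM in knockout cells, against 16.7, 18.1, 17.1 and 19.5 CPM in control cells. The genotypes were apart under abemaciclib (log2 difference 0.42, SE 0.0774, limma adjusted p = 6.2e-05) and overlapped under vehicle (log2 difference 0.13, limma adjusted p = 0.208). Without knockout abemaciclib replicate 1, its lowest library in that group, the interaction was 0.38 (adjusted p 0.0123) and the drug difference in knockout cells 0.22 (adjusted p 0.0206), and the drug difference in control cells was then called as well (-0.16, adjusted p 0.0466). The interaction also passed without knockout vehicle replicate 2 (0.35, adjusted p 0.0404). SNHG3, host of the SNORA73 pair, had 69.9, 67.9, 70.4 and 67.7 CPM in knockout libraries under abemaciclib, against 67.5, 64.8, 67.4 and 65.7 CPM in knockout libraries under vehicle. Control libraries had 65.9, 72.8, 68.4 and 66.9 CPM under abemaciclib, against 61.97, 66.5, 62.8 and 60.6 CPM under vehicle. The drug rise of 0.12 in control cells (limma adjusted p = 0.0187) was lost without control vehicle replicate 4 or replicate 2 of control cells under abemaciclib (0.09 to 0.10, adjusted p 0.0678 to 0.0953). Drug libraries were above vehicle libraries without overlap in knockout cells and overlapped them in control cells. The difference of 0.06 in knockout cells was not called (limma adjusted p = 0.325), but it was with median-of-ratios rescaling (0.14, adjusted p 0.00777) and quantile normalization (0.15, adjusted p 0.00517).

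The 6 called host genes of under 10 CPM on average were SNHG4, SNHG9, SNHG20, SNHG21, SNHG22 and SNHG30. SNHG4 averaged 10.7 ± 0.835 CPM in knockout cells and 7.71 ± 0.728 CPM in control cells under abemaciclib, and 11.9 ± 1.42 and 8.93 ± 0.470 CPM in knockout and control cells under vehicle (SD, n = 4), higher in knockout cells by 0.42 (limma adjusted p = 0.000378) and 0.37 (limma adjusted p = 0.00132). Its drug difference in control cells was called without control abemaciclib replicate 1 (-0.22, adjusted p 0.0493). SNHG20 averaged 4.07 ± 0.840 CPM in knockout cells and 3.01 ± 0.241 CPM in control cells under abemaciclib, and 4.46 ± 0.391 and 2.97 ± 0.130 CPM in knockout and control cells under vehicle. It was higher in knockout cells by 0.46 under vehicle (limma adjusted p = 0.00143), while the rise of 0.33 under abemaciclib (limma adjusted p = 0.0249) was lost without knockout abemaciclib replicate 4 or control abemaciclib replicate 3 (0.22 to 0.29, adjusted p 0.0715 to 0.155). SNHG30 averaged 2.62 ± 0.328 CPM in knockout cells and 1.74 ± 0.369 CPM in control cells under abemaciclib, and 3.28 ± 0.296 and 2.92 ± 0.392 CPM in knockout and control cells under vehicle. It fell with the drug in control cells by 0.52 (limma adjusted p = 0.000420) and was higher in knockout cells under the drug by 0.41 (limma adjusted p = 0.00903).

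The other 3 had calls near the threshold. SNHG21 fell with the drug in knockout cells, to 7.22 ± 0.666 CPM under abemaciclib against 9.02 ± 1.47 CPM under vehicle (log2 difference -0.28, SE 0.0957, limma adjusted p = 0.0202), a call lost without knockout vehicle replicate 1 or knockout abemaciclib replicate 4 (-0.22 to -0.18, adjusted p 0.0909 to 0.144) and with median-of-ratios rescaling (-0.20, adjusted p 0.104). SNHG22 rose in control cells, to 1.004 ± 0.293 CPM under abemaciclib against 0.590 ± 0.102 CPM under vehicle (log2 difference 0.32, SE 0.136, limma adjusted p = 0.0458), which was lost without control vehicle replicate 1, 2 or 3 or replicate 1, 2 or 3 of control cells under abemaciclib (0.24 to 0.35, adjusted p 0.0507 to 0.175). SNHG9 fell in control cells, to 6.47 ± 0.677 CPM under abemaciclib against 7.73 ± 0.190 CPM under vehicle (log2 difference -0.23, SE 0.0961, limma adjusted p = 0.0465), and 8 of the 16 leave-one-out fits lost this call (-0.24 to -0.19, adjusted p 0.0501 to 0.139), those without knockout vehicle replicate 1, control vehicle replicate 1, 2, 3 or 4, knockout abemaciclib replicate 2, or control abemaciclib replicate 1 or 2. SNHG1, SNHG26 and SNHG33 were called in none of the 5 comparisons. SNHG1, the host of SNORD22 and its neighbours, averaged 92.7 ± 10.3 and 91.4 ± 4.73 CPM in knockout and control cells under abemaciclib, and 91.5 ± 6.02 and 97.3 ± 3.56 CPM under vehicle, with a 95% interval of the knockout difference of -0.11 to 0.14 under abemaciclib and -0.21 to 0.04 under vehicle. With median-of-ratios rescaling it was called lower in knockout cells under vehicle (-0.15, adjusted p 0.0349). SNHG26 was called lower with the drug in control cells without control abemaciclib replicate 1 (-0.38, adjusted p 0.0147). Of the 4 untested rows, SNHG27 was at 0 in every library, and SNHG18, SNHG28 and the pseudogene row of SNHG33 stayed under 0.6 CPM.

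The snoRNAs themselves were hardly counted in these libraries, which were made from mRNA, so host levels stand in for no snoRNA level. GENCODE 29 places 148 snoRNA or scaRNA annotations inside 31 host genes, 84 of them in SNHG14, and 72 were at 0 in all libraries. Some small RNAs carry more than 1 of these annotations. None was found inside GAS5, so its snoRNAs are not in this count. Among the 148 annotations SNORD104 was the only one tested. Its sequence (chr17:64146083-64146152, plus strand, in SNHG25) and that of SNORD50B (chr6:85677589-85677658, minus strand, in SNHG5), the next highest at up to 0.981 CPM, are shown with box C (TGATGA) and box D (CTGA) in capitals.
SNORD104: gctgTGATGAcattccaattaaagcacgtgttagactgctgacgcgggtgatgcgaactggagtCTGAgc
SNORD50B: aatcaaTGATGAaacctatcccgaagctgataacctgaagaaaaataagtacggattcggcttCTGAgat
SNORD104 had 8.51, 8.41, 7.60 and 7.99 CPM in knockout libraries under abemaciclib, against 6.21, 6.88, 5.99 and 8.24 CPM in control libraries under abemaciclib. Under vehicle it had 6.90, 6.83, 7.25 and 8.22 CPM in knockout libraries, against 6.81, 5.01, 5.64 and 6.83 CPM in control libraries. The groups overlapped throughout and no comparison was called, with an interaction of -0.01 (95% interval -0.32 to 0.31), where that of SNHG25 was 0.33.

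Several hosts share a start region or exons with a protein-coding gene on the other strand. The strand setting of the counts is not given in the sources used here, so reads from overlapping exons cannot be told apart. This limit also holds for SNHG16, SNHG6 and SNHG29, which share 30.57%, 29.27% and 12.02% of their exonic bases with such genes. AC015802.6, the gene opposite SNHG16, had knockout differences of -0.36 under abemaciclib (limma adjusted p = 0.000843) and -0.32 under vehicle (limma adjusted p = 0.00218). ZNFX1, an interferon-responsive RNA helicase gene whose start lies 248 bases from that of ZFAS1 on the other strand, shares 249 exonic bases with it. ZNFX1 had 90.2, 92.4, 88.2 and 94.4 CPM in knockout libraries under abemaciclib, against 74.7, 69.9, 63.4 and 60.7 CPM in control libraries under abemaciclib. Under vehicle it had 71.8, 74.2, 74.8 and 73.9 CPM in knockout libraries, against 43.4, 39.3, 44.96 and 42.5 CPM in control libraries. It was higher in knockout cells without overlap, by 0.44 under abemaciclib (limma adjusted p = 2.6e-08) and by 0.78 under vehicle (limma adjusted p = 3.4e-14), where ZFAS1 was lower (-0.28). The ZNFX1 interaction was -0.34 (limma adjusted p = 0.00153), of opposite sign to that of ZFAS1.

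BARD1, the partner of BRCA1, starts 518 bases from SNHG31 on the other strand and shares no exonic base with it. Its libraries had 32.7, 30.9, 33.3 and 33.96 CPM in knockout cells under abemaciclib, against 47.8, 45.9, 45.7 and 46.8 CPM in control cells under abemaciclib. Vehicle libraries had 63.3, 66.7, 62.3 and 65.1 CPM in knockout cells, against 76.5, 80.5, 82.96 and 84.0 CPM in control cells. Like SNHG31 it was lower in knockout cells under both treatments (-0.50 and -0.33; limma adjusted p = 1.1e-10 and limma adjusted p = 4.5e-07). BARD1 also fell with the drug by 0.95 in knockout cells (limma adjusted p = 1.3e-18) and 0.79 in control cells (limma adjusted p = 2.3e-16), where SNHG31 had differences of 0.01 and -0.10. SNHG31 also overlaps ABCA12, a lipid transporter gene on the other strand, which was lower in knockout cells under abemaciclib (log2 difference -1.23, SE 0.101, limma adjusted p = 9.7e-12).

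**Figure D5:**
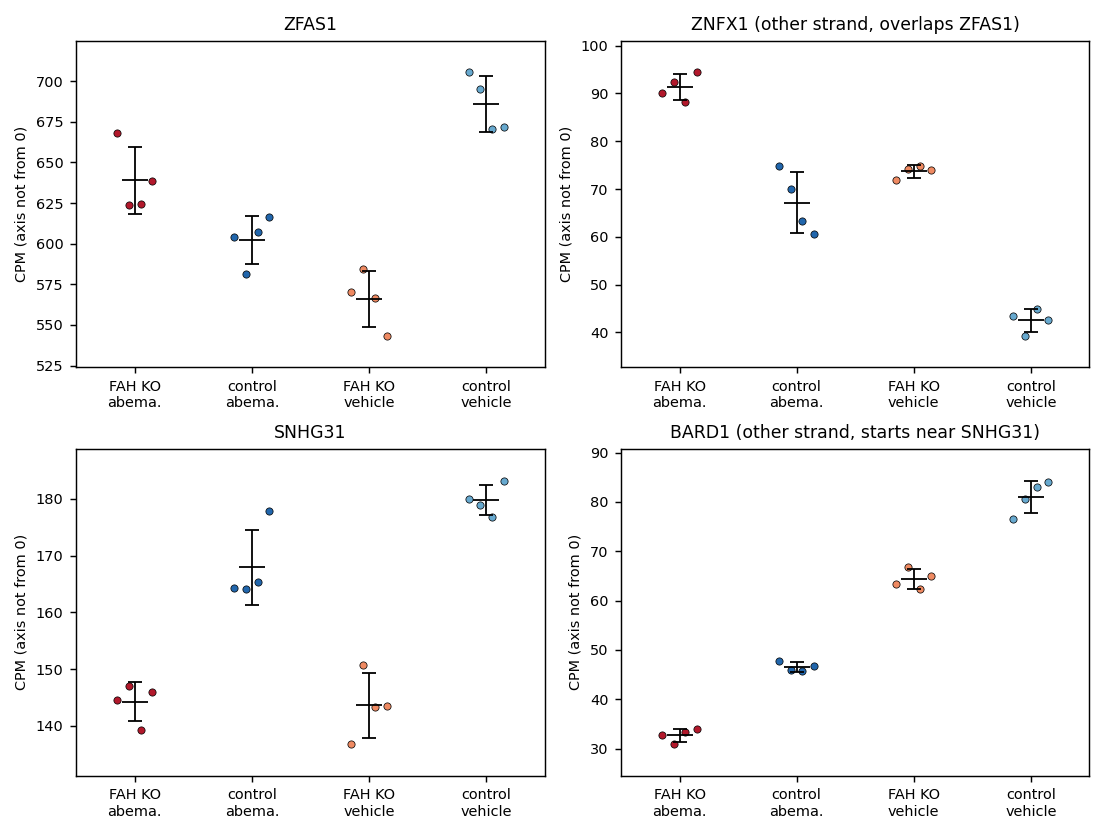
CPM in each library (points; vertical axes not from 0) with mean and SD of the 4 libraries of each group for ZFAS1 and ZNFX1 (top) and for SNHG31 and BARD1 (bottom). ZNFX1 is highest in FAH knockout cells under abemaciclib (88.2 to 94.4 CPM) and ZFAS1 in control cells under vehicle (670.3 to 705 CPM), and BARD1 is lowest in FAH knockout cells under abemaciclib (30.9 to 33.96 CPM).

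Other pairs were of mixed direction. SLC3A2, an amino acid transporter subunit whose start lies 188 bases from that of SNHG1, had a knockout difference of -0.20 under vehicle (limma adjusted p = 7.4e-05) and an interaction of 0.21 (limma adjusted p = 0.00787; 0.0938 with quantile normalization), where SNHG1 had none called. EPB41L4A, which shares 49.61% of the exonic bases of EPB41L4A-AS1, was higher in knockout cells under vehicle by 0.46 (limma adjusted p = 2.8e-05), a comparison in which EPB41L4A-AS1 was not called (0.04). GLRX5, which overlaps SNHG10, fell with the drug by 0.28 in knockout cells (limma adjusted p = 7.1e-08) and 0.39 in control cells (limma adjusted p = 2.8e-11), in the same direction as SNHG10. RCC1, whose annotated transcripts share a start region with SNHG3, fell with the drug by 0.57 (limma adjusted p = 1.4e-10) and 0.69 (limma adjusted p = 1.0e-12) in knockout and control cells, unlike SNHG3 (0.06 and 0.12). DIPK1B, which shares exonic bases with SNHG7, had an interaction of -0.64 (limma adjusted p = 0.000378), beside -0.07 in SNHG7. TRNAU1AP, which overlaps SNHG12, had an interaction of 0.25 (limma adjusted p = 0.0443), and ZBTB37 (by GAS5) and TRAF7 (by SNHG19) were not called in any comparison.

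Cytosolic ribosomal protein genes, the largest TOP class, had called interactions in the same direction as the host genes. Of 83 tested, 50 had an interaction called higher (4.68% of all tested genes) and 0 lower (6.16%) by limma. At an unadjusted p under 0.05 these were 63 and 0, with a median of 0.16 over the 83. With quantile normalization 30 were called higher and 1 lower. In knockout cells 5 were called higher (18.6% of all tested genes) and 35 lower (11.3%) under abemaciclib, with a median of -0.06. Under vehicle 1 was called higher (24.6%) and 73 lower (13.1%), with a median of -0.22. With the drug 4 were called higher (19.6%) and 55 lower (31.1%) in control cells, with a median of -0.17. In knockout cells 13 were called higher (11%) and 12 lower (27.4%) with the drug, with a median of 0.02. These became 47 higher and 3 lower with median-of-ratios rescaling and 9 higher and 27 lower with quantile normalization, so that no direction is given.

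Of 48 tested protein-coding snoRNA hosts, which include many ribosomal protein genes, 20 had an interaction called higher (4.68% of all tested genes) and 0 lower (6.16%). At an unadjusted p under 0.05 these were 30 and 1, with a median of 0.12 over the 48. Quantile normalization gave 13 called higher and 3 lower. The 20 were led by EEF1B2 (0.38) and EIF5A (0.29), which encode translation factors, FBL (0.28), which encodes the box C/D methyltransferase, and RPSA (0.27), a ribosomal protein gene. Under abemaciclib 10 of these 48 were called higher (18.6% of all tested genes) and 15 lower (11.3%) in knockout cells. The 10 called higher are near the share of all tested genes. Under vehicle 3 were called higher (24.6%) and 31 lower (13.1%). With median-of-ratios rescaling the counts became 5 and 19 under abemaciclib and 1 and 36 under vehicle. Among 15 translation factor genes and others known for TOP mRNAs, 4 had an interaction called higher and 0 lower (8 and 1 at an unadjusted p under 0.05). These were EEF1B2, HNRNPA1 (0.26), TPT1 (0.19) and EIF3E (0.16), of which TPT1 and EIF3E were not called with quantile normalization. That normalization gave 2 higher and 3 lower among the 15 (median 0.03), so that no direction is given for this list.

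Genes for the 4 core proteins of box C/D particles were all called lower with the drug, where 27.4% of all tested genes were called lower in knockout and 31.1% in control cells. FBL fell by 0.48 in knockout and 0.77 in control cells, NOP58 by 0.43 and 0.54, and NOP56 by 0.35 and 0.52. SNU13 fell by 0.17 and 0.22, the fall in knockout cells being lost with median-of-ratios rescaling (-0.08, adjusted p 0.109). Of the 4 core genes of box H/ACA particles, all fell with the drug in control cells, 3 of them also with either rescaling, with DKC1, the pseudouridine synthase gene, falling by 0.31. In knockout cells DKC1 fell by 0.23, and the difference of -0.13 in GAR1 was called but not with median-of-ratios rescaling (-0.04, adjusted p 0.519). All 4 were called higher in knockout than in control cells under abemaciclib, GAR1 by 0.25 and NHP2 by 0.23, where 18.6% of all tested genes were called higher, and 2 of the 4 were with median-of-ratios rescaling. Of 18 genes for particle assembly and intron processing, 11 fell in knockout and 12 in control cells with the drug, where 27.4% and 31.1% of all tested genes were called lower, PIH1D1, a subunit of an assembly complex, by 0.66 and 0.85. RUVBL1, an ATPase of particle assembly, was higher in knockout cells under abemaciclib by 0.29.

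Of 20 genes for nonsense-mediated decay, 9 were called higher and 1 lower in knockout cells under abemaciclib, and 10 higher and 1 lower under vehicle. Of all tested genes 18.6% were called higher and 11.3% lower under abemaciclib, and 24.6% and 13.1% under vehicle. With median-of-ratios rescaling these became 5 and 1 under abemaciclib and 9 and 1 under vehicle. UPF1, the central helicase, was higher by 0.29 under abemaciclib and 0.34 under vehicle, and SMG5, a decay adaptor, by 0.32 and 0.31. With the drug 10 fell and 0 rose in knockout cells by limma (11% of all tested genes were called higher and 27.4% lower), no gene being higher at an unadjusted p under 0.05, but 6 fell and 3 rose with median-of-ratios rescaling. In control cells 4 were called higher and 7 lower, near the 19.6% and 31.1% of all tested genes, and 6 higher and 4 lower with quantile normalization. The largest falls were those of MAGOHB (-0.74 in knockout and -0.99 in control cells), while EIF4A3, like MAGOHB of the exon junction complex, had -0.36 and -0.63.

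Of 14 genes of mTORC1 signalling and LARP1, 2 had an interaction called higher and 1 lower (4.68% and 6.16% of all tested genes). DEPTOR, an inhibitor of mTOR, rose with the drug by 0.80 in knockout and 1.43 in control cells and had an interaction of -0.63, and that of EIF4EBP1, a translation repressor that mTORC1 inactivates, was 0.33. LARP1 was higher in knockout cells under abemaciclib by 0.11 (limma adjusted p = 0.00717), but not called with median-of-ratios rescaling (0.06, adjusted p 0.144). Of 5 tested genes of MYC and related growth regulators 1 had a called interaction. MYC, known to drive genes of ribosome production, was higher in knockout than in control cells under abemaciclib by 0.36 (limma adjusted p = 2.3e-09), with an interaction of 0.28 (limma adjusted p = 0.000358). These lists share genes with each other, and whether any of their genes acts on the host genes was not tested.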

How the data were processed

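Bulk RNA-seq of the 16 libraries was analysed from 1 table of CPM, counts per 1000000 reads assigned to genes, as deposited by the authors. Per the submitters' processing notes, reads were handled with STAR 2.7.11, SAMtools 1.22.1, featureCounts of Subread 2.1.1 and MultiQC 1.32 on GRCh38. Not given in the sources used here were the annotation release, the strand setting and the handling of reads that match several genes. Of 78986 rows, 92 spike-in rows were left out. The depth was read from the value of 1 read, and 70.2 to 71.8% of values were whole reads within 0.02 reads, so that no count test was run as a main result.

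Features that reached 1 CPM in 4 or more libraries entered a fit of log2(CPM + 1) with limma 3.58.1 (R 4.3.3, trend on) in 1 model of 4 group means, with Benjamini-Hochberg adjustment over 16218 features for each of 5 comparisons. The scripts were tested on simulated data. Alternatives were a pseudocount of 0.1, no filter, median-of-ratios rescaling, quantile normalization, limma without trend, voom on reads estimated from CPM, the compared groups alone, a replicate block and leaving out each library. The members and gene lists were chosen with earlier results of these data known. Host genes of at least 10 CPM on average with a call are given in every library, and up to 4 called genes of a list by size in a comparison. Neighbours, positions and transcript starts are from GENCODE 29, because the RefSeq gene table, planned for neighbours, has no strand. Promoters are from RefSeq (GRCh38.p14). Promoter entries of SNHG6, SNHG9, SNHG15, SNHG25 and SNHG33 were not used here.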

Additional observations from a re-analysis of the deposited data

Results flagged for a closer look

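The abemaciclib difference was more positive in FAH knockout cells than in control cells, which for some means a smaller fall, for 9 host genes by the interaction term (limma, 4 libraries per group, log2 scale). It was 0.51 for DANCR (adjusted p = 3.9e-07), 0.36 for ZFAS1 (adjusted p = 2.7e-07), 0.36 for GAS5 (adjusted p = 1.1e-07), 0.33 for SNHG25 (adjusted p = 0.0166) and 0.26 for SNHG5 (adjusted p = 1.7e-05). It was also 0.26 for SNHG6 (adjusted p = 5.7e-05), 0.24 for SNHG16 (adjusted p = 0.00190), 0.16 for SNHG29 (adjusted p = 0.0225) and 0.13 for SNHG32 (adjusted p = 0.0333). With quantile normalization those of SNHG29 and SNHG32 were 0.00 (adjusted p = 0.984) and 0.03 (adjusted p = 0.695), and both were also not called with no filter on low values and with no trend.

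Single libraries stood apart from the other 3 of their group by Dixon's test in 10 of 120 combinations of host gene and group, where chance gives about 1 in 20. In knockout cells under abemaciclib, GAS5 had 666 CPM in replicate 1 (others 620.0 to 627), SNHG32 538 CPM in replicate 1 (551 to 553), SNHG14 60.3 CPM in replicate 3 (66.1 to 66.5) and SNHG19 35.5 CPM in replicate 4 (30.8 to 31.1). In control cells under abemaciclib, SNHG26 had 3.75 CPM in replicate 1 (2.44 to 2.57), SNHG29 498 CPM in replicate 1 (542 to 551) and SNHG31 178 CPM in replicate 4 (164 to 165). In knockout cells under vehicle, DANCR had 56.1 CPM in replicate 1 (54.7 to 54.9). In control cells under vehicle, SNHG19 had 46.2 CPM in replicate 3 (51.3 to 52.1) and SNHG5 649 CPM in replicate 4 (627 to 630.3).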

How the results depend on the processing

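Counts of called host genes stayed within 1.5 times the value given in the report, with the following exceptions. With the drug in knockout cells, 5 rather than 8 were higher with no filter on low values, and 3 rather than 7 were lower with median-of-ratios rescaling and with quantile normalization. In knockout against control cells under vehicle, 3 rather than 5 were higher with median-of-ratios rescaling. Leaving out 1 library gave 6 to 9 higher and 5 to 7 lower with the drug in knockout cells, 4 to 6 and 11 to 15 in control cells, 9 to 12 and 5 to 6 in knockout against control cells under abemaciclib, 4 to 5 and 8 to 9 under vehicle, and 8 to 10 and 0 to 1 for the interaction. Interactions called higher numbered 6 with no filter, with quantile normalization and with no trend, and 9 with the other alternatives that kept all libraries; the cause was not tested. Signs turned in control cells under abemaciclib against vehicle for SNHG32 (0.00332 with median-of-ratios rescaling and 0.0762 with quantile normalization), SNHG29 (0.136, adjusted p = 0.000186) and SNHG31 (0.0206) with quantile normalization. Only quantile normalization moved the median of all genes by over 0.1, to 0.03 instead of -0.07 for the drug in knockout cells. The losses named with single genes in the report are not a full list. Further calls near the threshold were lost with other alternatives.

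With the replicate number as a block, calls were 12 higher and 6 lower for knockout under abemaciclib, 5 and 8 under vehicle, 8 and 7 for the drug in knockout cells, 6 and 13 in control cells, and 9 and 0 for the interaction. The correlation of same-numbered libraries' deviations from their group means was -0.04 to 0.06 over 24 pairs. No strong effect shared by replicate number was thus seen, but whether same-numbered libraries were prepared together cannot be told from this. For genes of a few CPM, a depth at which 1 read is worth 0.0836 to 0.101 CPM limits what can be called.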
